A study of Mus musculus with 8 samples.

Results

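The subunit genes of Polycomb repressive complex 1 (PRC1) were described in retinal ganglion cells (RGCs) by ATAC-Seq, which marks open chromatin by the places where a transposase can insert adapters. Members were the genes Ring1, Rnf2, Bmi1, Pcgf2, Pcgf1, Cbx2, Cbx6, Cbx7 and Cbx8, with every open region that overlapped one of the 9 genes or lay within 10 kb of one (mouse build GRCm38). This gave 50 of the 189914 regions obtained by merging the peaks of all 8 libraries. Adult C57BL/6J mice received an intravitreal injection of AAV2-GFP (3 libraries), AAV2-Ezh2 (3 libraries) or AAV2-Ezh2-Y726D (2 libraries), a catalytically dead form of the methyltransferase Ezh2. The optic nerve was crushed (ONC) after 2 weeks in every group, so no library came from uninjured eyes. Cells were sorted 3 days later for CD90.2 (Thy1) on the surface and exclusion of a dead-cell dye, with 50000 cells per library. AAV2 in the vitreous is not restricted to RGCs, and the sort selected on a surface marker rather than on viral expression. The labels do not say whether replicates came from separate mice, so the p-values below measure the spread between these libraries.

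PRC1 places ubiquitin on a lysine near the end of histone H2A (H2AK119). Its catalytic core is a pair of RING finger proteins, RING1 or RNF2 (RING1B) with one PCGF protein, and the PCGF partner sets the type of complex. Canonical complexes hold PCGF2 (MEL18) or PCGF4 (BMI1) and a CBX chromodomain protein that can read H3K27me3, the mark deposited by Ezh2 within PRC2. Variant complexes, such as the PCGF1 complex with KDM2B and BCOR, are recruited without that mark.

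Sequence upstream of the annotated start was at hand for 7 of the 9 genes, as the 250 bases before the start in RefSeq (GRCm38.p6). Pcgf1 and Cbx2 had none. The stretches below belong to the start regions that ranked highest (Rnf2, Cbx8) and lowest (Bmi1, Pcgf2) among those 7, and capitals mark each CpG.
Rnf2 (chr1:151500992-151501241, minus strand): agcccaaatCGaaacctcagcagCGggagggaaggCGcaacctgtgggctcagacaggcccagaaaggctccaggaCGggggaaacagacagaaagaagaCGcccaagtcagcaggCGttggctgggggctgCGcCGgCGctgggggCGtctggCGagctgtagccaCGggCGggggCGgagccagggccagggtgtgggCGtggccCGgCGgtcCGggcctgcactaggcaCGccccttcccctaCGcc
Cbx8 (chr11:119040914-119041163, minus strand): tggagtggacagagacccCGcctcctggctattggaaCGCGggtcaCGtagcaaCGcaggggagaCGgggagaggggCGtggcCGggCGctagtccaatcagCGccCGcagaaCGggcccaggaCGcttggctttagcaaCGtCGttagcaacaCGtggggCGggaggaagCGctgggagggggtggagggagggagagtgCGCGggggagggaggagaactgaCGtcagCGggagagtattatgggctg
Bmi1 (chr2:18676768-18677017, plus strand): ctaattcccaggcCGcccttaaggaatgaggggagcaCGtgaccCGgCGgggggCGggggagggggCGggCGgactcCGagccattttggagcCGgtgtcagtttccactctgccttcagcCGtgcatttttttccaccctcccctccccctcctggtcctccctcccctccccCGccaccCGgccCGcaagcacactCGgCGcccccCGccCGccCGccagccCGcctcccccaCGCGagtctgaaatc
Pcgf2 (chr11:97699649-97699898, minus strand): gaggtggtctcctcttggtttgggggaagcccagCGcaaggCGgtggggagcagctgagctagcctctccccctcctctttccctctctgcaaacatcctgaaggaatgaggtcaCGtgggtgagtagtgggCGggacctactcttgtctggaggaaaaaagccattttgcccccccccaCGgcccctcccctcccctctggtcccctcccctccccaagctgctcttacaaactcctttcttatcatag

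Rnf2, Cbx8 and Bmi1 held 20, 22 and 21 CpG, against a median of 6 and an upper quartile of 16 over 32851 mouse promoters of the same length. Pcgf2 held 5. Ring1 had 30, Cbx7 had 23 and Cbx6 had 20. The letters GGGCGG, an SP factor motif that itself contains a CpG, occurred on either strand in 7 of the 7 upstream sequences and in 32.7% of all promoters. GCCATNTT, the motif of YY1, occurred in those of Bmi1 and Pcgf2 (2 of 7, against 3.91% of all promoters). CGCATGCG (NRF1), CCGGAAG (ETS) and TGANTCA (AP-1) were found in 0 of 7, against 1.55%, 6.91% and 6.75% of all promoters.

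The identity of the sorted cells was read from marker starts. Of 20 RGC genes, 18 or 19 had a start peak in every library, and 18 or 19 of 20 Müller glia genes did too. Rod genes with a start peak numbered 19 of 20 in each GFP library, 15 to 17 with Ezh2, and 16 and 19 with Ezh2-Y726D, and the difference of −3.33 between Ezh2 and GFP had an exact p of 0.1 (adjusted 0.3 over 15 tests). Of 20 microglia and macrophage genes, 12 to 16 had a start peak with GFP, 13 to 17 with Ezh2, and 3 in each Ezh2-Y726D library. Their summed percentiles of peak fold within each list were 466 to 604, 535 to 791 and 171 to 177. Of 20 T cell genes, 16 to 19, 19 to 20, and 7 to 8 had one, with sums of 915 to 1076, 1049 to 1128 and 341 to 434. Cx3cr1, Ptprc, Cd3e and Cd8a had a start peak in all 6 GFP and Ezh2 lists and in neither Ezh2-Y726D list. For both immune lists, the difference between Ezh2-Y726D and either other group had an exact p of 0.1 (adjusted 0.3). As a check of the labels, regions over Ezh2 itself (13 in all) had a peak in 8, 10 and 9 cases in the Ezh2 libraries, 3, 5 and 6 with GFP, and 4 in each Ezh2-Y726D library. By this count the libraries labelled Ezh2-Y726D lay within the GFP range, although their vector also carries a form of Ezh2. The count thus did not bear out their label, and the reason was not tested. Every comparison with these libraries rests on the sample titles. In the immune lists they stood apart from the other 6.

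Every member had a start region, the region at its start or, for Pcgf1 and Pcgf2, the nearest one within 1 kb. Each of the 9 was present in 8 of 8 lists. Of all 21883 protein-coding genes, 71.65% had a start region and 64.1% had it in all 8 lists. Among those with a start region, 89.5% had it in all 8 lists. Because the lists hold no read counts, strength was expressed as the fold of the highest peak over local background and, for comparison between lists, as its percentile within the list. The order of mean percentiles was Pcgf1 (92.1), Cbx2 (90.7), Rnf2 (89.6), Cbx8 (89.5), Cbx6 (72.8), Cbx7 (72.3), Ring1 (50.3), Bmi1 (34.8) and Pcgf2 (6.59). For start regions of all genes present in all 8 lists, the median was 88.1 and the quartiles were 72.7 and 95.7. Where a gene had several annotated starts, the region in most lists, then of highest mean percentile, was taken. Since 7 of the members had 1 annotated start each, their places against these quartiles are not fully like for like. Roles did not go together with this order: the RING pair lay at 89.6 and 50.3, the PCGF genes spanned 6.59 to 92.1, and the CBX genes spanned 72.3 to 90.7.

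Between neighbours in the order, the ranges over the 8 libraries overlapped among Pcgf1, Cbx2, Rnf2 and Cbx8, and between Cbx6 and Cbx7. They did not overlap between Cbx8 and Cbx6, between Cbx7 and Ring1, or between Bmi1 and Pcgf2. Ring1 and Bmi1 had overlapping ranges, yet Ring1 ranked above Bmi1 in 8 of 8 libraries. Thus 4 start regions stood near the upper end of their lists, Cbx6 and Cbx7 near the lower quartile of all gene starts, and Ring1, Bmi1 and Pcgf2 below it.

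**Figure D1:**
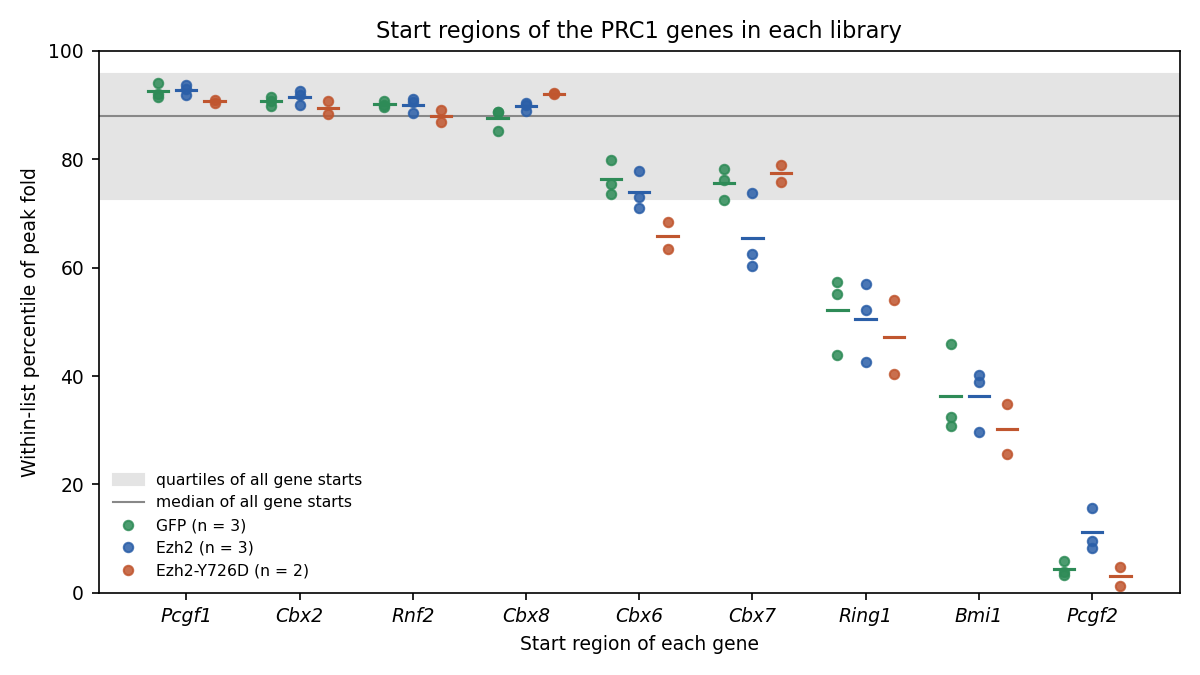
Within-list percentile of peak fold (y axis, in percent of the peaks of the list) at the start region of each PRC1 gene (x axis, ordered by mean). Points are libraries, short bars group means, and the grey band and line the quartiles and median of all gene starts. Pcgf1, Cbx2, Rnf2 and Cbx8 sat between 85.1 and 94.1 in all libraries, and Pcgf2 between 1.27 and 15.7.

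Among the RING genes, Rnf2 encodes the main E3 ligase of the complex. Its start region (chr1:151500006-151501471) reached the percentiles 89.7, 90.8 and 90.0 in the GFP libraries, 88.6, 91.2 and 90.5 with Ezh2, and 89.1 and 86.9 with Ezh2-Y726D. The span was narrow and Ezh2 overlapped both other groups. Both Ezh2-Y726D values lay below those of GFP (rank difference −0.18 ± 0.17, limma, adjusted p = 0.576). The start region of Ring1, the paralogous ligase (chr17:34024198-34025264), lay at 55.1, 44.0 and 57.3 with GFP, 42.6, 56.9 and 52.2 with Ezh2, and 40.4 and 54.1 with Ezh2-Y726D. Its libraries were spread more widely, and the groups overlapped.

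Among the PCGF genes, Pcgf1, the partner of variant complexes, had the highest start region of the 9 (chr6:83077553-83079094). Its percentiles were 94.1, 92.0 and 91.4 with GFP, 91.8, 92.9 and 93.7 with Ezh2, and 90.4 and 90.9 with Ezh2-Y726D, so both Ezh2-Y726D libraries lay just below the other 6. The region began 1 bp inside the gene end that served as its start. Bmi1 (chr2:18676238-18678070) lay at 45.9, 30.8 and 32.5 with GFP, 29.7, 40.3 and 38.9 with Ezh2, and 25.7 and 34.9 with Ezh2-Y726D. Its width of 1833 bp was the greatest of the 9 start regions, whereas its median fold was only 4.07, against 9.84 for Pcgf1.

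Pcgf2, the paralogue of Bmi1, had the lowest start region (chr11:97699725-97700950, 77 bp upstream of the annotated start). Its percentiles were 3.85, 3.38 and 5.94 with GFP, 8.30, 15.7 and 9.47 with Ezh2, and 1.27 and 4.81 with Ezh2-Y726D. All 3 Ezh2 libraries lay above the other 5. The rank difference, in units of a normal score fitted with limma over 69493 regions, was 0.38 ± 0.17 (SE) for Ezh2 against GFP (adjusted p = 0.249) and 0.57 ± 0.19 for Ezh2 against Ezh2-Y726D (adjusted p = 0.0782). Neither passed the threshold of 0.05, but ranked by the −log10 p of the peak caller in place of the fold the latter did (0.75, adjusted p = 0.0265). The annotated gene extends 2786 bp further upstream, and the region at that outer end (chr11:97702422-97703749), which also covers the start of the proteasome gene Psmb3, had a mean percentile of 66.1. The low rank of Pcgf2 therefore holds for one of its ends. With the outer end, the difference between Ezh2 and GFP was −0.05 (limma, adjusted p = 0.928).

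Among the CBX genes, which encode the chromodomain readers, Cbx2 (chr11:119022621-119023761) lay at 89.8, 91.5 and 90.7 with GFP, 91.8, 89.9 and 92.6 with Ezh2, and 88.2 and 90.7 with Ezh2-Y726D. Its neighbour Cbx8 (chr11:119040403-119041793) lay at 88.7, 85.1 and 88.8 with GFP, 90.3, 90.0 and 88.9 with Ezh2, and 92.1 and 92.0 with Ezh2-Y726D. These Cbx8 groups did not overlap and were ordered GFP, Ezh2, Ezh2-Y726D, but the rank difference between Ezh2-Y726D and GFP was 0.26 ± 0.17 (limma, adjusted p = 0.380). For Cbx6 (chr15:79833150-79834843), the percentiles were 79.9, 73.5 and 75.5 with GFP, 73.1, 77.7 and 71.0 with Ezh2, and 63.4 and 68.4 with Ezh2-Y726D. Both Ezh2-Y726D values were below the other 6 (rank difference against GFP −0.43 ± 0.19, limma, adjusted p = 0.186). Cbx7 (chr15:79932118-79933294) lay at 76.1, 78.3 and 72.5 with GFP, 62.5, 73.8 and 60.2 with Ezh2, and 75.8 and 78.9 with Ezh2-Y726D. One Ezh2 library overlapped the GFP range, and the rank difference for Ezh2 against GFP was −0.38 ± 0.19 (limma, adjusted p = 0.300).

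In none of the 3 comparisons did limma with Benjamini-Hochberg adjustment over all regions call a member start region. The lowest adjusted p was 0.249 for Ezh2 against GFP, 0.186 for Ezh2-Y726D against GFP and 0.0782 for Ezh2 against Ezh2-Y726D. The share called among 12821 start regions was 0.71%, 1.69% and 4.7%, and 0 of 9 is close to these shares. The differences of the 9 start regions ranged from −0.43 to 0.57, with SE from 0.15 to 0.21. Ezh2-Y726D gave a value below GFP for 7 of the 9 start regions and Ezh2 a value above Ezh2-Y726D for 7 of the 9. Both counts rest on the same Ezh2-Y726D libraries and are not independent, and both comparisons with GFP use the same GFP libraries.

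Beyond the start regions, 41 further regions lay in or near the genes. Of the 50 regions, 29 overlapped a member gene, and 6 of the 41 covered the start of a neighbouring gene. A peak in all 8 lists was present in 30 of the 50 (60%), against 36.6% of all regions, and a peak in 1 list in 6 (12%), against 17.2%. Of the 41 regions away from the starts, 20 were missing from at least 1 list. Regions in all 8 lists had a median width of 1113 bp, and those in fewer lists 473.5 bp. Cbx7, the longest of the genes, had 10 regions, Pcgf2 had 8, Bmi1 and Pcgf1 had 6 each, Rnf2, Cbx2, Cbx6 and Cbx8 had 5 each, and Ring1 had 3. Cbx2 and Cbx8 lie side by side on chromosome 11 and share 3 of these. One shared region between them (chr11:119033962-119034798), which covers no annotated protein-coding gene, ranked as high as the starts, at 85.7 to 97.3 over the 8 libraries.

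**Figure D2:**
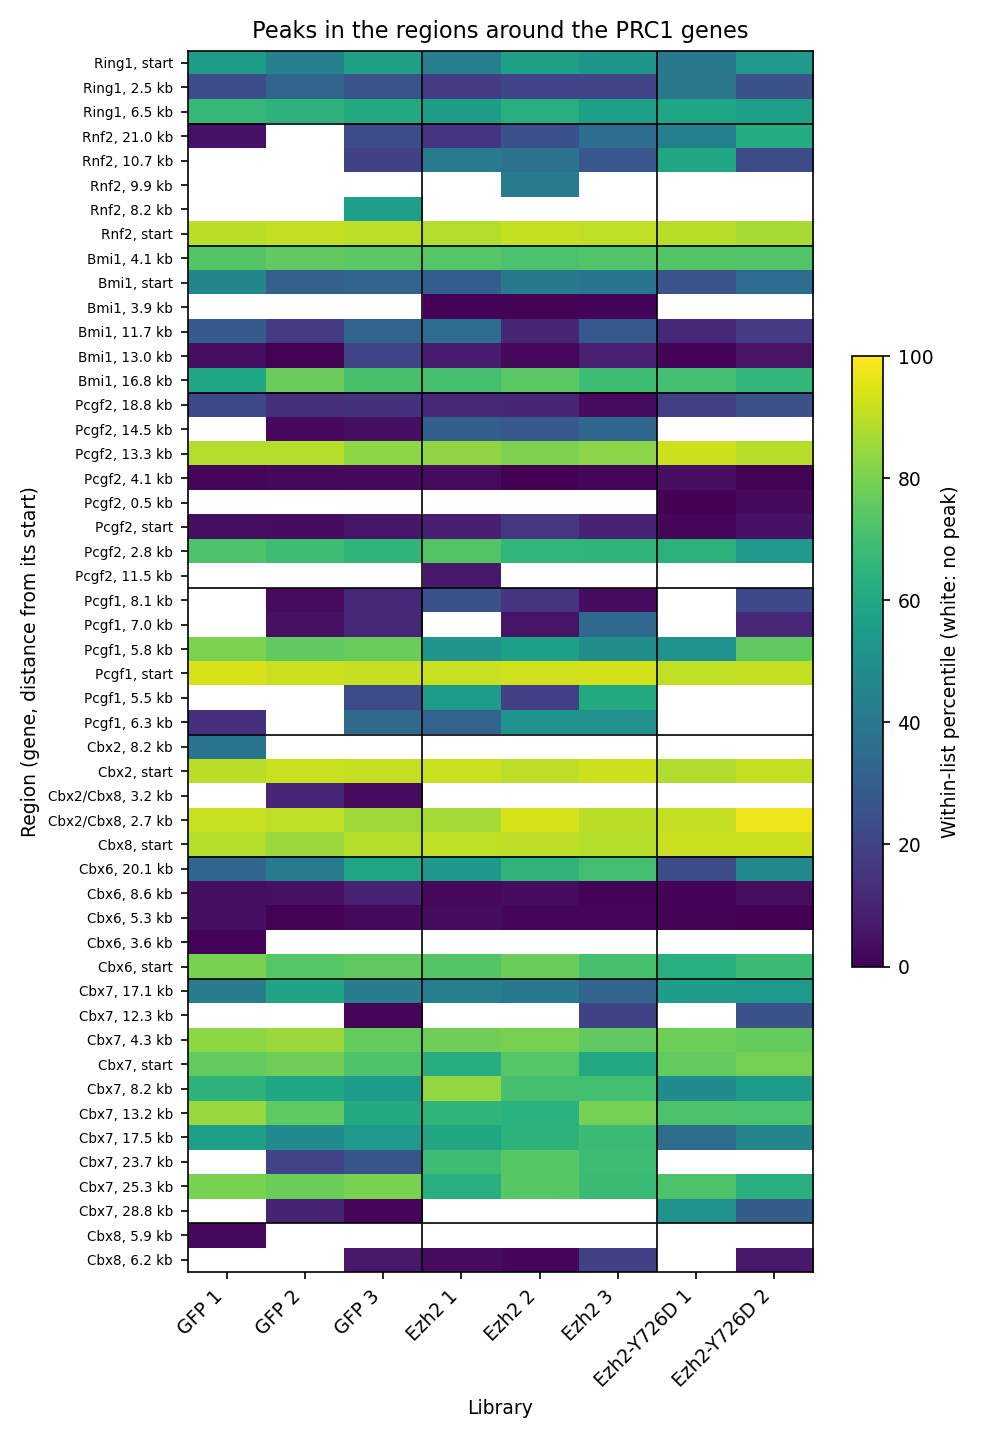
Each of the 50 regions (rows, named by gene and distance from its start, in kb) in each library (columns), coloured by the within-list percentile of its highest peak, with white for no peak. The 9 start rows are filled in all 8 libraries, whereas 20 other rows have white cells.

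The GFP libraries had a peak in 35, 36 and 43 of the 50 regions, the Ezh2 libraries in 40, 41 and 41, and the Ezh2-Y726D libraries in 34 and 38. The Ezh2 and Ezh2-Y726D counts did not overlap. The share of all 189914 regions with a peak in each library was not computed, so the gap cannot be called particular to these genes. The difference of 4.67 between their means had p = 0.1 in a two-sided exact permutation test (adjusted 0.4 over 6 tests), the smallest p this design can give. It was 2.67 and 6.67 without Ezh2-Y726D replicate 1 and 2, each of which leaves 1 library in that group. With regions within 5 kb only, it was 1.17 (exact p = 0.3). It was 5.33 at −log10 q of at least 5, 3.33 with lists of equal length and 4.17 with peaks covering 0.5 of the region (exact p = 0.1 for each). Ezh2 differed from GFP by 2.67 (exact p = 0.4, adjusted 0.6) and Ezh2-Y726D from GFP by −2 (exact p = 0.8, adjusted 0.8). For Ezh2 the difference was 1.17, 1.67 and 5.17 without GFP replicate 1, 2 and 3 (exact p = 0.8, 0.8 and 0.1). For Ezh2-Y726D it was −3.5, −3 and 0.5 without GFP replicate 1, 2 and 3, and 0 and −4 without Ezh2-Y726D replicate 1 and 2. GFP replicates 1 and 2, which had the lowest GFP counts, also had the shortest lists (115710 and 112939 peaks, against 124666 to 135895 in the other 6). With all lists reduced to the same length, the difference between Ezh2 and GFP was −0.667. In the 30 regions present in all lists, the median percentile was 65.5, 66.9 and 61.0 with GFP, 61.1, 64.9 and 66.8 with Ezh2, and 57.6 and 55.8 with Ezh2-Y726D. Both Ezh2-Y726D values lay below the other 6 (exact p = 0.2, adjusted 0.4, against either group).

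For Ezh2 against GFP, 1 of the 30 shared regions was called lower and 0 higher by limma, against 2.84% and 1.59% of 69493 regions. The region lies 5848 bp from the Pcgf1 end used as start, outside any annotated protein-coding gene, with the homeobox gene Tlx2 on its other side (chr6:83070805-83071704). Its percentile was 80.3, 75.5 and 77.2 with GFP, 52.3, 56.4 and 49.5 with Ezh2, and 50.8 and 75.7 with Ezh2-Y726D. The GFP and Ezh2 groups were well apart, whereas the Ezh2-Y726D libraries fell on either side. Rod genes also had fewer start peaks with Ezh2 than with GFP (15, 17 and 15 against 19 in each of 3), and their part in the difference was not tested. The rank difference for Ezh2 against GFP was −0.88 ± 0.21 (limma, adjusted p = 0.0471), and 20.0% of all regions had an unadjusted p under 0.05, as did 6 of the 30. The call was lost under 13 of 16 alternative settings, among them the removal of any one GFP or Ezh2 library, with adjusted p up to 0.133 (limma). It was kept at −log10 q of at least 5 (limma, adjusted p = 0.0368) and without either Ezh2-Y726D library. Those libraries are not part of this comparison, and their removal left the difference at −0.88.

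By presence alone, 1 of the 50 regions was gained with Ezh2 over GFP (a peak in every list of one group and in none of the other) and 0 were lost, against 2.72% and 1.68% of all regions. The gained region is inside Bmi1, 3924 bp from its start (chr2:18680942-18681276). Its percentile was 0.948, 0.618 and 0.803 in the Ezh2 libraries, at the bottom of each list, with folds of 2.34, 2.22 and 2.21. Leaving out a list loosens this rule, so such counts can only rise, among all regions too. Without GFP replicate 3 the gained regions numbered 4, and without GFP replicate 1 the lost regions numbered 2. The shares over all regions were not computed with a list left out.

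Ezh2-Y726D against GFP gave 0 calls higher and 0 lower among the 30 member regions, against 3.55% and 4.65% of all regions. Of the 30, 3 had an unadjusted p under 0.05, against 24.4% of all regions. With the −log10 p ranking, limma called 2 of the 30 lower, against 4926 of all 69493 regions. They were the same Tlx2-side region of Pcgf1 (−1.07, limma, adjusted p = 0.0359) and a region inside Cbx7, 25.3 kb from the start (−0.65, adjusted p = 0.0437). One region was gained and 0 were lost, against 4.77% and 4.72% of all regions. The gained region is inside Pcgf2, 511 bp from the start, with percentiles of 0.181 and 2.35. Under the looser rule without GFP replicate 3 the gained regions numbered 2, and without GFP replicate 1 or 2 the lost regions numbered 3 or 1.

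**Figure D3:**
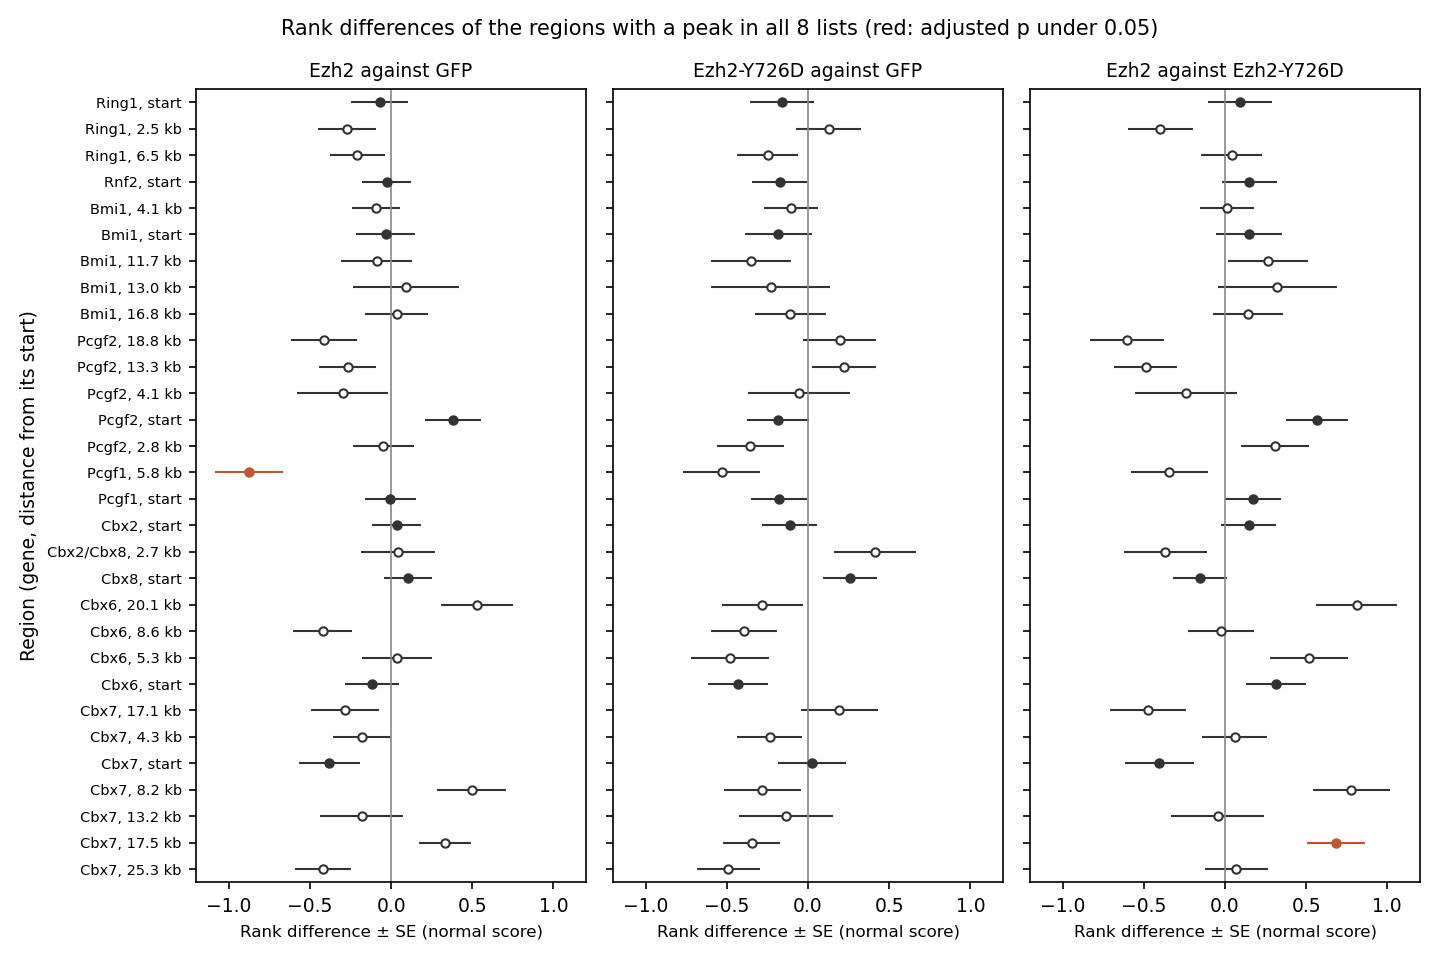
Rank differences (x axis, in normal scores, with SE) of the 30 regions with a peak in all 8 lists (rows), in each of the 3 comparisons. Filled black points are start regions and red points passed an adjusted p of 0.05: the Pcgf1 region at −0.88 in the first comparison and the Cbx7 region at 0.68 in the third.

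Ezh2 against Ezh2-Y726D, the comparison of the active with the dead enzyme, gave 1 call higher and 0 lower among the 30, against 7.0% and 6.96% of all regions. The called region is inside Cbx7 (chr15:79950100-79951212), 17454 bp upstream of the start used and within the annotated gene, which extends 38497 bp beyond that start. Its percentile was 59.7, 64.5 and 68.1 with Ezh2, 56.6, 48.3 and 53.6 with GFP, and 35.3 and 46.0 with Ezh2-Y726D. The 3 groups did not overlap, and GFP lay between the Ezh2 forms. The rank difference was 0.68 ± 0.18 between the Ezh2 forms (limma, adjusted p = 0.0320), 0.33 ± 0.16 for Ezh2 against GFP (adjusted p = 0.283) and −0.35 ± 0.18 for Ezh2-Y726D against GFP (adjusted p = 0.265). The call was lost under 7 of 16 alternatives, among them the removal of any one Ezh2 library (limma, adjusted p from 0.0573 to 0.0787). It was also lost without either Ezh2-Y726D library, which leaves 1 in that group (differences 0.57 and 0.79 without replicate 1 and 2). The lowest adjusted p was 0.0102 (limma, by −log10 p). The settings that kept the call include the removal of each GFP library, which is not part of this comparison and left the difference at 0.68.

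More regions were gained or lost in this comparison, among the members as among all regions. With Ezh2 over Ezh2-Y726D, 5 of the 50 regions were gained, against 8.96% of all regions, and 2 were lost, against 6.14%. Within Cbx7, a region 23.7 kb from the start (chr15:79956357-79957053) had percentiles of 69.1, 74.0 and 69.1 with Ezh2, 20.0 and 26.8 in GFP replicates 2 and 3, and no peak in GFP replicate 1 or in either Ezh2-Y726D library. It was the strongest of the 5. When regions present in at least 5 lists were tested, it was called higher with Ezh2 than with GFP (1.34, limma, adjusted p = 0.0235). A further region of Cbx7, 28.8 kb from the start (chr15:79961430-79961937), went the other way, with 51.5 and 29.7 in the Ezh2-Y726D libraries, 10.1 and 1.60 in GFP replicates 2 and 3, and no peak with Ezh2. The outermost end of Cbx7 had no region within 1 kb.

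**Figure D4:**
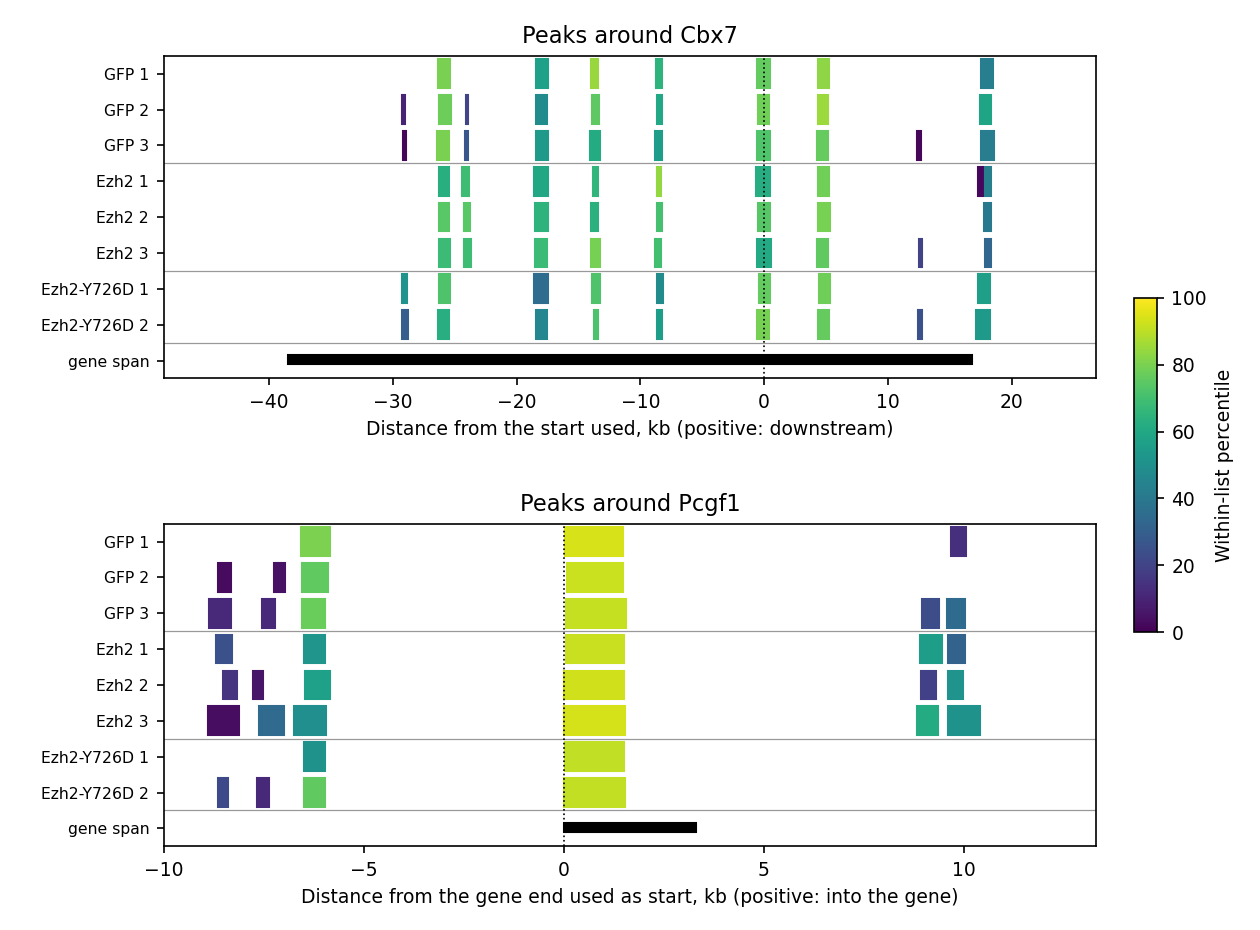
Peaks of each library (rows) around Cbx7 (top) and Pcgf1 (bottom) by distance from the start used (x axis, kb), coloured by within-list percentile, with the gene span in black. At Cbx7, the peak near −24 kb is in all 3 Ezh2 libraries and in neither Ezh2-Y726D library, and the peak near −29 kb is in both Ezh2-Y726D libraries and in no Ezh2 library.

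Beside Pcgf1, 2 adjacent regions over the homeobox gene Lbx2 were gained. The nearer one (chr6:83086387-83087003, 5532 bp from Pcgf1) had percentiles of 55.4, 18.8 and 61.3 with Ezh2 and 23.4 in GFP replicate 3. The farther one (chr6:83087137-83087941) had 31.4, 51.5 and 50.6 with Ezh2 and 13.8 and 34.4 in GFP replicates 1 and 3. A region 14.5 kb from the start of Pcgf2, inside the transcription cofactor gene Mllt6 (chr11:97683890-97685141), had 30.4, 28.1 and 33.8 with Ezh2, 2.48 and 4.23 in GFP replicates 2 and 3, and no peak with Ezh2-Y726D. The fifth gained region was that of Bmi1 described above, which had no peak with GFP either. The second lost region was that of Pcgf2 511 bp from its start. Thus 3 of the 5 gained regions overlay neighbouring genes or lay outside the member they were assigned to. In this comparison, the Ezh2-Y726D libraries also had fewer start peaks at microglia and T cell genes. The part of those cells in the differences at Cbx7, Pcgf1, Pcgf2 and Bmi1 was not tested. In sorted bulk cells, a smaller share of a cell type and less open chromatin per cell cannot be told apart.

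Over the 30 shared regions, the median rank difference was −0.08 for Ezh2 against GFP, −0.18 for Ezh2-Y726D against GFP and 0.08 for Ezh2 against Ezh2-Y726D. Over all 69493 regions, the medians were 0.01, −0.01 and 0.02. Of the 30, 10 lay above 0 in the first comparison, 7 in the second and 19 in the third.

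A further 29 genes of PRC1 and of H2AK119 ubiquitin turnover were read the same way. A start region was present in all 8 lists for 27 of them, and limma called 0 of the 27 in either direction in each comparison (lowest adjusted p 0.313, 0.308 and 0.198). Their median rank differences were −0.08, −0.09 and −0.06. L3mbtl2 of the PCGF6 complex and the H2A deubiquitinase gene Mysm1 had the highest mean percentiles, 99.8 and 99.7. Kdm2b and Bcor, partners of PCGF1, lay at 93.6 and 30.9. The start of Bcorl1 had a peak in 7 lists, and that of Scml4 in 0.

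Of the members, Pcgf2 had the start region with the largest rank difference, 0.57. The genes whose start regions followed its profile most closely over the 8 libraries were Gm33099, Slc6a7 and Cpne2 (Pearson's r = 0.986, 0.977 and 0.968 among 14025 genes), given as a description since these libraries share their groups and list lengths.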

How the data were processed

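ATAC-Seq peaks of 8 libraries (3 GFP, 3 Ezh2, 2 Ezh2-Y726D) were used as deposited, with groups taken from the sample titles. The authors called peaks in each library separately on GRCm38. Per the submitters' processing notes, cutadapt, Bowtie2, SAMtools, Picard, MACS2 and deepTools were used, and settings for read shifting or the peak threshold are not given in the sources used here. As deposited, fold is the ratio of summit pileup to local background, computed by the caller the authors used. The deposited −log10 p and −log10 q values come from the same caller, and the deposited score, a rescaled value of that caller, was not used. The lists hold no read counts, so depth is unknown and list length (112939 to 135895 peaks) stands in for it.

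Peaks sharing at least 1 bp were merged over all lists into 189914 regions. Each region took the highest fold per list and its percentile among the peaks of that list. Ranks in the 69493 regions with a peak in all 8 lists were turned into normal scores and fitted with limma 3.58.1 (R 4.3.3), all libraries in 1 fit, with Benjamini-Hochberg adjustment over all regions and a threshold of 0.05. The fit was tested on simulated data. Counts per library were compared by two-sided exact permutation tests. The replicate numbers were not used as a block in the main fit, since deviations of same-numbered libraries from their group means were nearly uncorrelated over all regions. Alternatives were another rank measure, other filters, a 5 kb window, left-out libraries, replicate blocks and, chosen after seeing the data, another start for Pcgf2.

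Gene positions and starts came from RefSeq tables of GRCm38.p6. The table gave no strand for Pcgf1 and Cbx2, for which either gene end could serve as the start. The design asked for a region overlapping the start, and the nearest region within 1 kb was taken for Pcgf1 and Pcgf2, where none did. Described were all 9 members, every member region called, gained or lost, called starts among 29 related genes, and the 3 starts most like that of the member with the largest difference. Regions called only under an alternative were named after their values were seen. The members and lists were chosen with earlier results of these data known.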

Additional observations from a re-analysis of the deposited data

Results flagged for a closer look

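The region inside Cbx7 (chr15:79950100-79951212) was called between the Ezh2 forms, so the effect of Ezh2 against GFP differed there from that of Ezh2-Y726D. The difference of the effects was 0.68 ± 0.18 normal scores (limma, adjusted p = 0.0320), with Ezh2 higher than GFP in 3 of 3 libraries and Ezh2-Y726D lower in 2 of 2. Neither effect against GFP passed the threshold alone. This was 1 of 30 member regions called higher, against 7.0% of all 69493 regions. The call was lost under 7 of 16 alternatives, among them the removal of any one Ezh2 library. Marker genes of immune cells had fewer start peaks in the Ezh2-Y726D libraries, and their part in the difference was not tested.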

How the results depend on the processing

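No alternative turned the direction of a called region, but calls were few and changed with the setting. The 1 region lower with Ezh2 than GFP became 0 when ranked by −log10 p, on the percentile scale, with regions in at least 5 lists, with lists of equal length, with peaks covering 0.5 of the region, within 5 kb, and with either replicate block. Over all regions, lower calls went from 1977 of 69493 to 1785 by −log10 p and 693 on the percentile scale. With the title and peak-name blocks they numbered 1454 and 1305. They were 1213 of 62413 with lists of equal length, 541 of 44175 with 0.5 coverage and 2277 of 106862 with at least 5 lists. Regions higher with Ezh2 than Ezh2-Y726D rose from 1 to 3 of 30 by −log10 p, against 5885 of all 69493 regions. They rose to 2 of 30 on the percentile scale (against 4263 of 69493) and to 2 of 25 at −log10 q of at least 5 (against 3331 of 55518). Those lower with Ezh2-Y726D than GFP rose from 0 to 2 of 30 by −log10 p, against 4926 of 69493. Those higher with Ezh2 than GFP rose from 0 to 2 of 38 with regions in at least 5 lists, against 1752 of 106862. Leaving out single libraries gave 0 to 1 for the first 2 counts. The cause of these changes was not tested.

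Gained and lost counts also moved. At −log10 q of at least 5, Ezh2-Y726D gained 2 over GFP, and Ezh2 lost 1 against Ezh2-Y726D. With lists of equal length, gained counts against GFP were 0 for both forms, lost counts 1 for both, and 1 was lost between the forms. With 0.5 coverage, 2 and 3 were gained against GFP. Within 5 kb, 3 were gained between the forms. Without single libraries, where fewer lists must meet the rule, Ezh2 gained 1 to 4 and lost 0 to 2 against GFP. Ezh2-Y726D gained 1 to 2 and lost 0 to 3. The shares over all regions were not computed for these alternatives. The difference in regions with a peak was −0.667 for Ezh2 against GFP with lists of equal length, and within 5 kb it was 1 for Ezh2 against GFP, −0.167 for Ezh2-Y726D against GFP and 1.17 between the forms. It ran from 1.17 to 5.17 for Ezh2 against GFP, from 2.67 to 6.67 between the forms and from −4 to 0.5 for Ezh2-Y726D against GFP without single libraries.

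The differences of start regions changed sign in 21 of 432 values, none of them called. For Ezh2 against GFP these were, by −log10 p, Ring1 (0.00672), Rnf2 (0.0114) and Bmi1 (0.00082), on the percentile scale Pcgf1 (0.269 points), and with the outer gene end Pcgf2 (−0.0473). Cbx7 in Ezh2-Y726D against GFP gave −0.0236 by −log10 p, −0.0313 with regions in at least 5 lists and −0.0898 with the replicate block. Without single libraries, Ezh2 against GFP ran from −0.163 to 0.00987 for Ring1, −0.0649 to 0.0163 for Rnf2, −0.151 to 0.117 for Bmi1 and −0.0815 to 0.075 for Pcgf1. Ezh2-Y726D against GFP ran from −0.33 to 0.00907 for Ring1, −0.393 to 0.0257 for Pcgf2 and −0.0849 to 0.106 for Cbx7, and Ezh2 against Ezh2-Y726D from −0.0789 to 0.260 for Ring1.

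With the replicate block by title numbers, the Pcgf1 and Cbx7 regions had adjusted p of 0.0685 and 0.0669 (limma), and another Cbx7 region, 8.2 kb from the start, was called between the forms (0.91, adjusted p = 0.0376). With the numbers in the peak names, which are 2 and 3 for the Ezh2-Y726D libraries, a region 20.1 kb from the start of Cbx6 was called instead (0.95, limma, adjusted p = 0.0284). Correlations of same-numbered libraries, taken over all regions, lay between −0.0151 and 0.0478. Such values cannot exclude a batch shared by same-numbered libraries at some regions.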
